A study of Arabidopsis thaliana with 2 samples.

Results

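The genes described here are jacalin-type lectin loci of Arabidopsis thaliana: 8 loci of a tandem cluster on chromosome 1 and 2 relatives on chromosome 3, chosen by locus name with earlier results of these arrays known. Of the 10 listed loci, 7 had a probe set of their own on the array, among 13286 genes with one. Those were AT1G52000, AT1G52050, AT1G52060, AT1G52070 and AT1G52100 on chromosome 1, and JAL33 (AT3G16450) and JAL34 (AT3G16460) on chromosome 3. The other 3 loci, AT1G52110, AT1G52120 and AT1G52130, had no probe set named as theirs, shared or single, and were dropped.

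Transcripts were measured in OE-N6, a transgenic line in the Columbia-0 background that overexpresses AT4G16790 (called NHRGP in the labels), and in wild-type Columbia-0. Whole seedlings of both genotypes were 2 weeks old and had been raised at 22 °C on diluted Murashige and Skoog medium (sucrose at 2%), under days of 16 h light and 8 h dark. Each genotype was read on 1 ATH1 array from Affymetrix, which reads each transcript with a set of short probes. OE-N6 is 1 line, and the promoter that drives its transgene is not given in the sources used here. Because a genotype has 1 array, there is no replicate check of any difference, no p-value is given, and precision is limited by the number of arrays. In whole seedlings, more cells of a type and more RNA per cell cannot be told apart.

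Jacalin-type lectins are plant proteins built from one or more copies of the sugar-binding fold first described in jacalin, a seed lectin of jackfruit. Members differ in the sugars they bind, with mannose and galactose the best known. In Arabidopsis the family is large and partly arranged in tandem clusters. Some members assemble with PYK10, a beta-glucosidase stored in the ER bodies of roots and seedlings, and related domains occur in the myrosinase-binding proteins and nitrile specifier proteins of glucosinolate breakdown.

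The overexpressed gene checks the labels. The signal of AT4G16790 was 5171 in OE-N6 and 91.1 in wild-type seedlings. The second value lay under the floor of 112 signal units, to which lower signals were raised before taking ratios, which makes it at least 46.2-fold higher in OE-N6. The median signal of all non-control probe sets was 189.97 for OE-N6 and 190.3 for the wild type.

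The lectin ratios were highest at a run of 3 neighbouring loci in the middle of the cluster. AT1G52060, AT1G52070 and AT1G52050 were higher in OE-N6, while AT1G52000 and AT1G52100 to either side, and the chromosome 3 pair, had ratios of at most 1.19-fold. These ratios are among the values from which the loci were chosen, so they describe the arrays and are not a test. Probe sequences were not at hand, so cross-hybridisation between probe sets of neighbouring lectin loci could not be checked. Several higher transcripts and 1 transcript read by several probe sets therefore cannot be told apart. All 7 log2 ratios of OE-N6 over wild type were above 0, and their median was 0.25. None of the 7 was under the floor on both arrays. Over the 7453 genes of which that is true, 46.7% lay above 0 and the median was -0.02. Those genes are of all brightness, and ratios differed with brightness, as given below. The 5 chromosome 1 loci alone had a median of at least 0.99, which is the bound for AT1G52050, and of 1.29 without the floor.

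AT1G52060 had the largest ratio of the 7 lectin genes. Its signal was 546 in OE-N6 and 130.3 in the wild type, a 4.19-fold difference and a log2 ratio of 2.07. The probe set stood above 74.1% of the non-control probe sets on the OE-N6 array and above 42.5% on the wild-type array. AT1G52070, the next locus along, had signals of 511 in OE-N6 and 209 in the wild type, 2.44-fold higher with a log2 ratio of 1.29. AT1G52050, on the other side of AT1G52060, had 223 in OE-N6 and 89.3 in the wild type. Its wild-type signal was under the floor, which makes the difference at least 1.99-fold, and the deposited signals themselves stand in a ratio of 2.50. AT1G52050 therefore lay just short of the 2-fold line used for counting, and AT1G52070 was the lectin closest above it. With the floor taken over non-control probe sets only, at 111 units, AT1G52050 was at least 2.00-fold higher and just past the line.

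**Figure D1:**
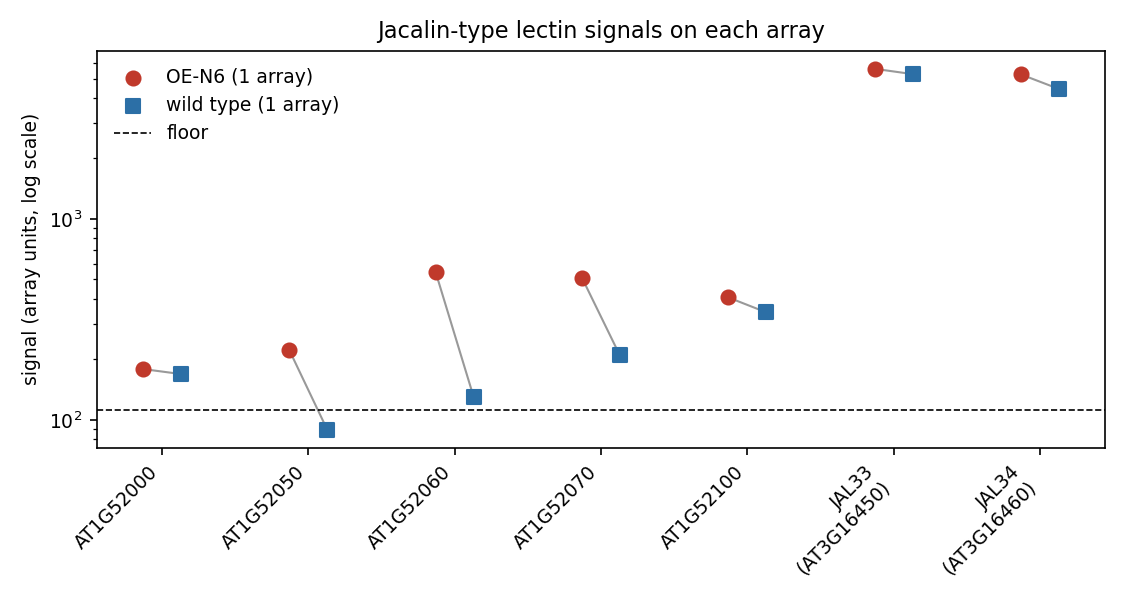
Signal of the 7 lectin probe sets in array units on a log axis, OE-N6 as red circles and wild type as blue squares, 1 array each, joined by a line for each gene; the dashed line is the floor of 112. The steepest line joins 546 and 130.3 for AT1G52060, and the AT1G52050 wild-type signal of 89.3 is the only point under the floor.

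The remaining lectin genes had nearly level signals. AT1G52100 had 407 in OE-N6 and 343 in the wild type, a log2 ratio of 0.25. AT1G52000, at the start of the cluster, had 179 in OE-N6 and 169 in the wild type, a log2 ratio of 0.08. JAL33 and JAL34 were read by bright probe sets, above 97.7% and 97.6% of those on the OE-N6 array. JAL33 had 5594 in OE-N6 and 5263 in the wild type, a log2 ratio of 0.09. JAL34 had 5245 in OE-N6 and 4438 in the wild type, a log2 ratio of 0.24. Probe sets differ in how well they hybridise, so signals on 1 array do not order the 7 genes by abundance.

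Genes were counted at 2-fold after a filter that kept those with a mean signal of at least 192, the median of the non-control probe sets. Of 5848 genes that passed, 32 were at least 2-fold higher in OE-N6, which is 0.547%, and 29 at least 2-fold lower, which is 0.496%. AT1G52060 ranked 4 and AT1G52070 ranked 14 among the 5848 by log2 ratio. Of the 7 lectin genes 5 passed the filter and 2 of these reached 2-fold. AT1G52060 passed only through its OE-N6 signal, since its wild-type signal was under 192, and such a gene could pass only by differing. AT1G52050 and AT1G52000 did not pass. Over all 13286 genes without the filter, 0.263% were at least 2-fold higher. That total includes genes under the floor on both arrays, which could not reach 2-fold, and 7453 of the 13286 were not of this kind.

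Ratios scatter more widely among dim genes, so each lectin was also set beside the 500 genes nearest to it in mean signal. None of the 500 beside AT1G52060 had as high a log2 ratio, and the highest was AT1G52070 at 1.29. Beside AT1G52070, 2 of 500 were as high or higher, and beside AT1G52050 1 of 500. Signals were raised to the floor before these counts, which limits the ratios of the dim genes beside AT1G52050. The highest of those ratios was 1.01, and counts without the floor were not made. For the level lectins the counts were larger, 73 of 500 beside AT1G52100 and 200 of 500 beside AT1G52000. Beside JAL34 there were 120 and beside JAL33 there were 228 of 500, so JAL33 sat near the middle of genes of its brightness. Quartiles of the log2 ratio were -0.10 and 0.23 for the 500 genes beside JAL33. They were -0.24 and 0.12 for the 500 beside AT1G52070, so the brighter genes lay higher. The lectin ratios were known before these counts, and other lectins were not taken out of the sets of 500. These counts describe the arrays and are no substitute for replicates. For 41 genes with several probe sets past the filter, the median gap in log2 ratio between the 2 brightest was 0.19. That is about the size of the JAL34 and AT1G52100 ratios. The gap compares probe sets on the same 2 arrays, so it leaves out variation between plants and between arrays.

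**Figure D2:**
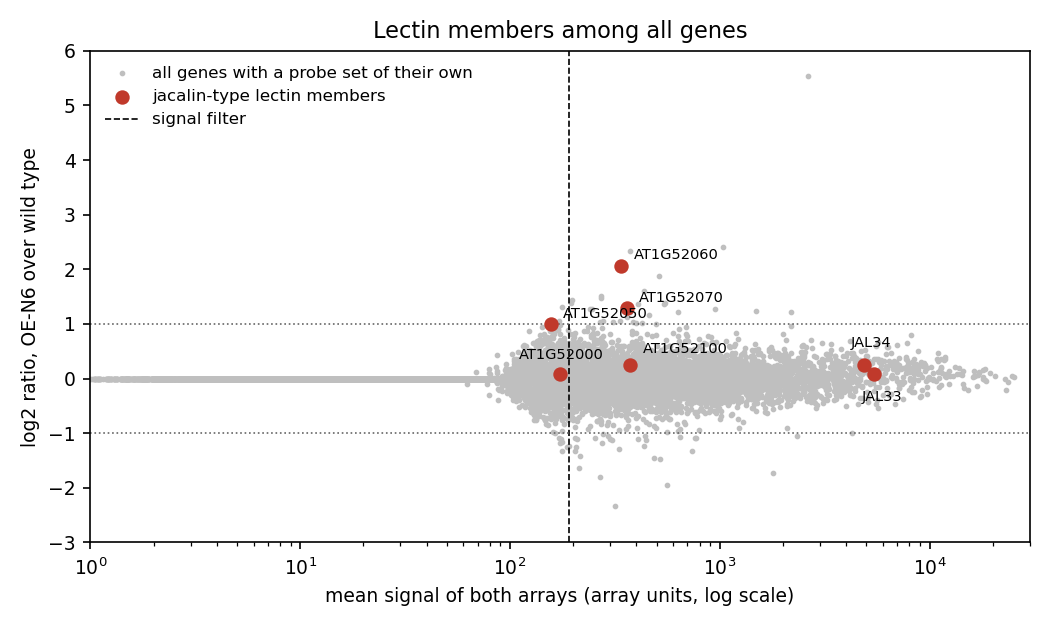
Log2 ratio of OE-N6 over wild type against mean signal of both arrays in array units on a log axis, with all 13286 genes in grey and the 7 lectins in red; the dashed line is the signal filter of 192 and the dotted lines mark 2-fold. AT1G52060 and AT1G52070 lie above the upper dotted line, AT1G52050 lies on it, and JAL33 and JAL34 lie inside the grey band at the bright end.

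Along the chromosome the run of higher ratios ended after AT1G52070. Its neighbour AR791 (AT1G52080), which is not among the lectin loci, had 173 in OE-N6 and 204 in the wild type, a log2 ratio of -0.23. The step between AT1G52070 and AR791 was 1.52 on the log2 scale. Of 2251 adjacent pairs of protein-coding loci in the genome in which neither was under the floor on both arrays, 10, this pair included, differed by that much or more, and the median difference was 0.26. The ratio of AT1G52070 was known to be high before this count, which places the step among all pairs and does not test it. The next measured lectin beyond AR791 is AT1G52100, 1.04 below AT1G52070 in log2 ratio.

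Within the run, AT1G52060 exceeded AT1G52070 by 0.78 and AT1G52050 by at most 1.07 in log2 ratio. The gap to AT1G52050 was 0.75 from the deposited signals without the floor, and AT1G52050 and AT1G52070 then differed by 0.03. On the near side, AT1G52000 is separated from AT1G52050 by the myrosinase-binding protein genes MBP2 and MBP1, which had no probe set named as their own, and by the pseudogenes AT1G52010 and AT1G52020, which were under the floor on both arrays. The log2 ratio of AT1G52000 was at least 0.91 below that of AT1G52050, and 1.24 below it without the floor. JAL33 and JAL34, adjacent on chromosome 3, differed by 0.15, and 1549 of the 2251 adjacent pairs differed by as much or more.

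The outer flanks of the cluster were level. AT1G51980, a subunit of the mitochondrial processing peptidase, had 2682 in OE-N6 and 2409 in the wild type, a log2 ratio of 0.15. AT1G52140 had 494 in OE-N6 and 429 in the wild type, a log2 ratio of 0.20. AT1G51990 was under the floor on both arrays.

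**Figure D3:**
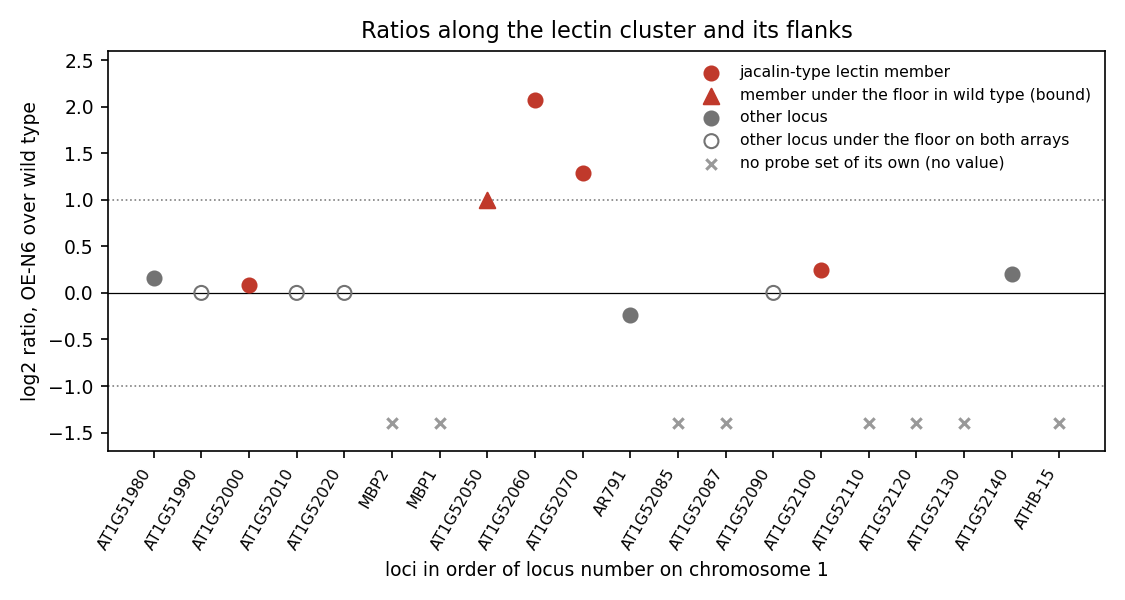
Log2 ratio of OE-N6 over wild type for loci in order of their number along the chromosome 1 cluster, lectins in red and other loci in grey; the triangle is a bound, open circles are loci under the floor on both arrays, crosses are loci with no value, and dotted lines mark 2-fold. AT1G52050, AT1G52060 and AT1G52070 stand between 0.99 and 2.07, with AR791 at -0.23 beside them.

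Adjacent loci that were both at least 2-fold higher were rare among the pairs measured. Of 5817 pairs of adjacent protein-coding loci with a probe set each, AT1G52060 and AT1G52070 made up the 1 pair that met this. Counting instead loci next to each other among those measured gave 2 of 12219 pairs, the other being AT4G12490 and AT4G12500, of a lipid transfer protein family, at log2 ratios of 1.23 and 1.12. Both totals include pairs with a locus under the floor on both arrays, and such a locus could not reach 2-fold. Of the 5817 pairs, 2251 held no such locus. The lectin pair was known to be high before it was counted, so this count places it among all pairs and does not test it.

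Only 5 probe sets for other jacalin-type lectin loci gave a ratio, and none of the 5 reached 2-fold. Of 37 such loci listed from elsewhere in the genome and from the same clusters, 14 had a probe set of their own, and 2 further probe sets each read a pair of loci. Of these 16 probe sets 11 were under the floor on both arrays and give no ratio. AT1G33790 had the highest ratio of the other 5, with 276 in OE-N6 and 198 in the wild type, a log2 ratio of 0.48. JAL22 had 2249 in OE-N6 and 2537 in the wild type, a log2 ratio of -0.17, and AT2G25980 had 476 in OE-N6 and 477 in the wild type. AT1G19715 was at -0.03, and AT1G73040, which did not pass the filter, at -0.33. The 4 that passed had a median log2 ratio of -0.01, beside -0.02 for all genes that passed. The probe sets under the floor read AT5G28520, AT5G49870, AT1G57570, AT5G35940, AT3G59610, AT5G46000, AT3G21380, JAL23 and AT1G60130, and the pairs AT5G38540 with AT5G38550 and AT2G43730 with AT2G43740.

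Genes of the PYK10 complex and ER bodies had small ratios on these arrays. Of 17 listed loci, 5 probe sets passed the filter, 4 above 0 and 1 below, with a median log2 ratio of 0.14. PYK10 itself had 16513 in OE-N6 and 15969.7 in the wild type, a log2 ratio of 0.05. NAI2, a protein of the ER body, was at 0.14, AT3G20370 at 0.28, and the probe set shared by the beta-glucosidases BGLU21 and BGLU22 at 0.24. NAI1, the transcription factor needed for ER bodies to form, had 288 in OE-N6 and 389 in the wild type, a log2 ratio of -0.43. None of the 5 reached 2-fold. Of 15 loci listed for myrosinases and glucosinolate breakdown, among them MBP1, MBP2 and the nitrile specifier proteins, none had a probe set named as its own.

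Root-enriched genes with a value were all higher on the OE-N6 array. Of 30 listed loci 6 probe sets gave a value. All 6 log2 ratios were above 0, with a median of 0.35. Of genes not under the floor on both arrays, 46.7% lay above 0. That share pools genes of all brightness, and brighter genes lay higher on these arrays. Within the 6, the brightest probe sets, those of PYK10 and of BGLU21 with BGLU22, had the lowest ratios. The part of brightness in these ratios was not tested. The summed signal of the 6 root-enriched probe sets was 21649.8 in OE-N6 and 19983 in the wild type. Most of each sum was PYK10, at 16513 in OE-N6 and 15969.7 in the wild type. None of the 6 was under the floor on both arrays. AT3G01190, a class III peroxidase, had 519 in OE-N6 and 223 in the wild type, 2.33-fold higher and close to AT1G52070. EXPA18, an expansin of root hairs, had 289.6 in OE-N6 and 188 in the wild type, a log2 ratio of 0.62. The peroxidase AT5G17820 was at 0.35 and the root hair expansin EXPA7, which did not pass the filter, at 0.34. The BGLU21 and BGLU22 probe set at 0.24 and PYK10 at 0.05 are in this list and in the PYK10 list. The part of root tissue in the lectin ratios was not tested.

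Genes of green shoots lay on both sides of equal signal. All 6 probe sets with a value passed the filter, of 24 listed loci, with 3 above and 3 below 0 and a median log2 ratio of 0.01. Their summed signal was 67262 in OE-N6 and 66221 in the wild type. PSAN of photosystem I was highest at 0.16, followed by the Calvin cycle enzyme PRK at 0.04. FMA, a guard cell transcription factor, was lowest at -0.65, with 296 in OE-N6 and 466 in the wild type, and LHCB4.2, a light-harvesting protein, was at -0.18. Some jacalin-type lectins respond to jasmonate. Of 21 loci listed for that response 2 passed the filter, the defensin genes PDF1.2 and PDF1.2b, at -0.45 and -0.54. Whether the probe sets of these 2 genes read separate transcripts was not tested. The thionin gene THI2.1 was under the floor on both arrays. The ratio between control probe sets at the 3' end of a transcript and those further upstream, a sign of RNA quality, was higher in OE-N6 for 9 of 10 pairs from actin, GAPDH and ubiquitin, which share probe sets. Its part in the lectin ratios was not tested.

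**Figure D4:**
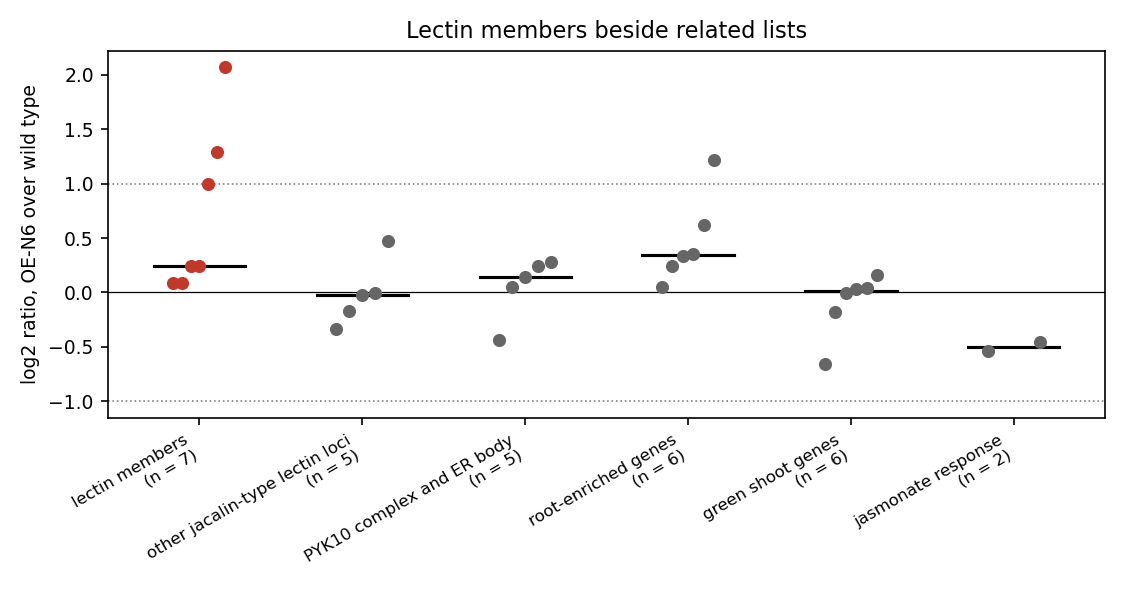
Log2 ratio of OE-N6 over wild type for the 7 lectins in red and for members of 5 related lists in grey, leaving out probe sets under the floor on both arrays; bars are medians and dotted lines mark 2-fold. The lectins spread between 0.08 and 2.07, and AT3G01190 of the root-enriched list at 1.22 is the only grey point past 2-fold.

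Among the 5843 genes that passed the filter with both signals above the floor, those nearest in log2 ratio to AT1G52060 were SAG29, a sugar transporter of senescing tissue, at 1.88, the alpha-amylase AMY1 at 2.34 and AT4G22470, of a lipid transfer protein family, at 2.41. Nearest to AT1G52070 were AT3G46280 at 1.28, the chloroplast gene ndhE at 1.28 and CML23, a calmodulin-like protein, at 1.27. Likeness here means the difference between log2 ratios over 2 arrays.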

How the data were processed

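Signals are intensity on a linear scale, 1 per probe set, as deposited by the authors; the submitters' processing notes name MAS5, without a version or settings. Each deposited intensity column has a mean of 500 after trimming 2% at either end, so a shift common to most transcripts would not be seen. Of 22746 non-control probe sets, 13513 have 1 gene in the platform annotation, 503 several and 8730 are unnamed here; 13436 with 1 gene matched RefSeq's TAIR10.1 table by gene identifier, giving 13286 genes after the brightest probe set was taken. That table was used for names and locus order only, and adjacency follows locus numbers. The floor was the 40th percentile of all signals. No test was made. The procedure was also run on simulated data, with changes planted only in genes that had passed the filter. That run checks the calculation. It does not measure the precision of 1 array per genotype and does not cover genes that did not pass, such as AT1G52050. Python 3.11.15, numpy 2.4.6, pandas 2.3.3, statsmodels 0.14.6, scipy 1.17.1 and matplotlib 3.10.9 were used.

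The lectin loci and the lists were chosen with earlier results of these data known. Named genes were every lectin locus with a probe set, the overexpressed locus, from each other list the 2 highest and 2 lowest that passed the filter, and the 3 genes nearest in log2 ratio to each lectin past 2-fold. The flanking loci, AT4G12490, AT4G12500, NAI2, AT5G17820, EXPA7 and THI2.1 fall outside this rule and were chosen after seeing their values.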

Additional observations from a re-analysis of the deposited data

How the results depend on the processing

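AT1G52060 (log2 ratio 2.00 to 2.11) and AT1G52070 (1.26 to 1.34) stayed past 2-fold under the scaling, floor, pseudocount and probe-set alternatives. Over the same alternatives AT1G52000 ran from 0.08 to 0.12, AT1G52100 from 0.24 to 0.30, JAL33 (AT3G16450) from 0.02 to 0.09 and JAL34 (AT3G16460) from 0.17 to 0.24, all above 0 and none past 2-fold. AT1G52050 ran from 0.99 to 1.32, which sets the count of lectins at least 2-fold higher: 2 as reported, and 3 under quantile scaling, loess scaling, a pseudocount of 7.89 in place of the floor, no floor, a floor at the 25th percentile, or a floor over non-control probe sets only. Its wild-type signal of 89.3 is raised to the floor of 112 as reported. That signal is not raised under a floor at the 25th percentile (41.6) or without a floor. Quantile and loess scaling gave AT1G52050 log2 ratios of 1.01 and 1.02 with a floor of 111.8, just past the 2-fold line. Which signals the scalings moved was not examined. At 1.5-fold the count was 3 and at 3-fold 1. The median over the 5 chromosome 1 loci was 0.99. Leaving out AT1G52050, AT1G52060 and AT1G52070 gave a median of 0.16. A filter at the 75th percentile gave values for JAL33 and JAL34 only. Over all genes that filter left 6 higher and 6 lower at 2-fold. At 1.5-fold 142 were higher and 141 lower, at 3-fold 6 and 5, and over all probe sets, named or not, 58 and 55. No listed lectin was read by a shared probe set alone, so that alternative gave no value. The floor over non-control probe sets, the count over all probe sets, the lectins past the filter only (median 0.25) and the median without the run were added after the data were seen. No paired analysis was possible because there is a single array for each line. Low signal limits AT1G52050, whose ratio is a bound.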
